A study of Bos taurus with 8 samples.

Results

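Myeloid cells are the macrophages, monocytes and granulocytes of the innate immune system. The myeloid marker genes described here are CD14, CSF1R, CD163, OLR1, TYROBP, FCER1G, AIF1, CYBB, ITGB2 and CD68. They were taken by symbol from the deposited expression table, and each of the 10 was represented by a single transcript cluster, that is, the set of probes for the transcripts of a gene, among 19901 symbols on the array. Macrophages reside in the theca and stroma of the ovary, and leukocytes enter the follicle wall around ovulation, whereas the granulosa layer itself lacks blood vessels before ovulation. Myeloid cells sense bacterial lipid through CD14, depend on the growth factor receptor CSF1R, and carry surface receptors that signal through the adaptors TYROBP and FCER1G.

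Mural granulosa cells were obtained from the dominant follicle of 8 non-pregnant German Holstein cows in the second lactation. In the heat stress (HS) group, 4 cows were kept at 28°C, and in the pair-fed (PF) group, 4 cows were kept at 15°C on a feed supply restricted to that of HS cows. According to the labels each climate was applied for 96 h, and all 8 cows received prostaglandin F2α, 49 h later 100 µg of a GnRH analog to induce the LH surge, and were transferred to slaughter 22 h after that. The granulosa layer was scraped off the opened follicle wall, the methods name no sorting step, and each array holds the RNA of a single cow.

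The values are log2 signals from the robust multichip average (RMA), in which background is removed, arrays are brought to a common distribution and the probes of a transcript cluster are summarized. A signal has its own scale for each cluster, so levels are compared between arrays and not between genes. The array medians lay between 5.27 and 5.37 in HS and between 5.33 and 5.44 in PF. PF replicate 3 stood apart from the other arrays, with a mean correlation of 0.941 with them, against 0.962 to 0.980 for the other 7. Its signal of PTGS2, the prostaglandin synthase gene that the LH surge induces, was 3.46, whereas the other 7 arrays had 10.03 to 11.02. The study reads the ratio of progesterone to estradiol in all follicles as indicative of a stage after the LH surge. It also reports high PTGS2 in both groups, from group averages. Whether this cow had an LH surge was not tested here and cannot be told from the array values. Fold changes of the members and differences between list means are therefore also given without this array. The 13 granulosa markers, among them FOXL2, FSHR and CYP19A1, averaged 8.72 ± 0.42 in HS and 8.26 ± 0.34 in PF (SD, n = 4 each). Such levels do not establish the identity of the cells, since fibroblast and smooth muscle markers averaged 7.69 ± 0.86 in HS and 8.59 ± 0.98 in PF. None of the 13 granulosa markers met the thresholds given next on all arrays. Without PF replicate 3, FOXL2 (0.67) and INHBA (1.58) met them, both higher in HS and named after their values were seen. In that fit 721 of all 26773 clusters met them as higher in HS.

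All 10 myeloid marker genes had a lower mean signal in HS than in PF, as had 54.0% of all 26773 clusters. The median log2 fold change (HS minus PF) was -0.84, whereas that of all clusters was -0.019, and 7 of the 10 genes were lower by more than 1.5-fold, as were 3.31% of all clusters. The thresholds of the study ask for a change of more than 1.5-fold at an unadjusted p under 0.05. In limma they were met by OLR1 and CD14, both lower in HS, that is, by 2 of 10 genes, as they were by 0.627% of all clusters, and by no member in the other direction, as they were by 1.58% of all clusters. None of the 10 passed the Benjamini-Hochberg adjustment over all clusters in limma or the methods' t-test, and no cluster of the array passed it in limma (0.00%). In limma the adjusted p ranged from 0.683 to 0.854 over the members, and 2 were lower at an unadjusted p below 0.05 (2.81% of all clusters). Exact permutation tests of the single genes gave p from 0.057 for OLR1 to 0.657 for CYBB. The methods' t-test, to which the unpaired analysis of variance of the study amounts with 2 groups, left OLR1 past the thresholds (0.325% of all clusters). In none of the 10 genes were all HS arrays below all PF arrays, a separation that 2.00% of all clusters showed. In a bulk sample, fewer myeloid cells and less of these transcripts per cell cannot be told apart.

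The mean over the 10 genes was 5.77, 5.60, 6.63 and 5.77 in HS replicates 1 to 4, against 6.97, 5.76, 8.23 and 6.11 in PF replicates 1 to 4. PF replicates 1 and 3 were thus high, HS replicate 3 was the highest of its group, and PF replicate 2 lay among the low HS arrays. The group means were 5.94 ± 0.46 in HS and 6.77 ± 1.10 in PF (SD, n = 4 each), a difference of -0.82. Leaving out PF replicate 3 brought this difference to -0.34, and leaving out PF replicates 1 and 3 to 0.0055. PF replicates 1 and 3 were the 2 highest of all arrays, so leaving them out raises HS minus PF by construction. No 2 HS arrays were left out together.

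**Figure D1:**
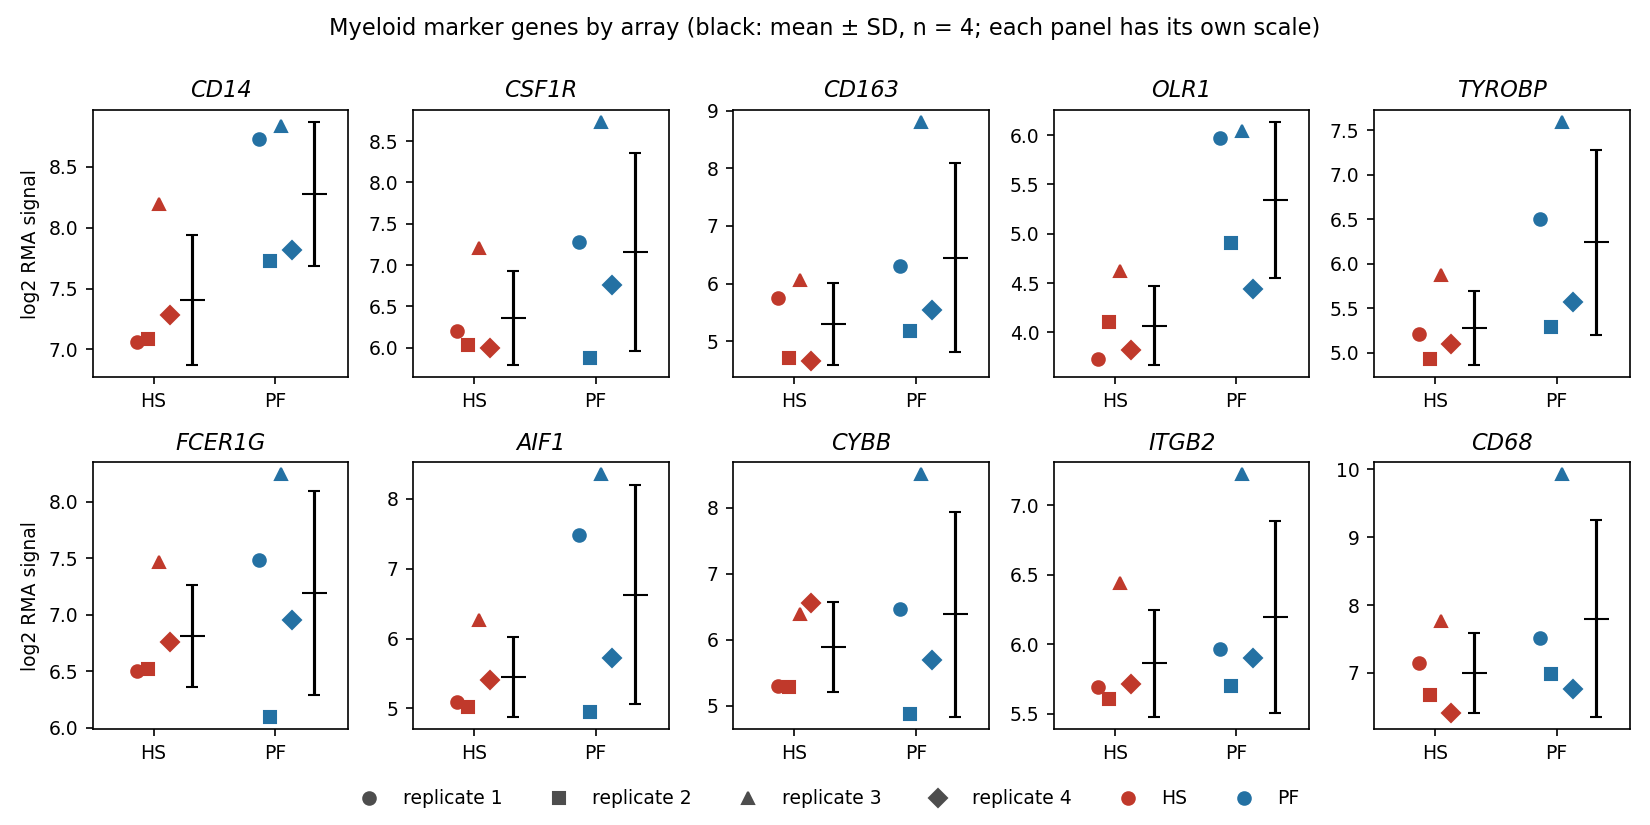
Log2 RMA signal (y axis) of the 10 myeloid marker genes in the 4 HS and the 4 PF arrays (x axis). Symbols mark the replicate number and black bars the mean ± SD (n = 4). PF replicate 3 is the highest array in all 10 panels, and the groups overlap in each.

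Among receptors for microbial and modified lipids, CD14 (cluster 12883076) encodes the coreceptor that hands lipopolysaccharide to the TLR4 complex. Its log2 signal was 7.06, 7.09, 8.20 and 7.28 in HS replicates 1 to 4, against 8.73, 7.73, 8.84 and 7.81 in PF replicates 1 to 4. The groups overlapped only through HS replicate 3, which lay above PF replicates 2 and 4. The means were 7.41 ± 0.54 in HS and 8.28 ± 0.59 in PF (SD, n = 4 each), and CD14 was the only member whose spread was of similar size in the groups. The log2 fold change was -0.87 (standard error 0.35, 95% interval -1.66 to -0.080), which met the study's thresholds but not the adjustment in limma (adjusted p = 0.683; exact permutation test, two-sided, p = 0.086). With 4 arrays against 4 the smallest p of that permutation test is 0.029. Leaving out each array in turn kept the call in 3 of 8 cases (without HS replicate 3, PF replicate 2 or PF replicate 4), and with PF replicate 3 left out HS minus PF was -0.68. The call was also lost by the methods' t-test and with array weights (-0.55). PF replicate 3 exceeded PF replicate 1 by only 0.11.

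OLR1 (cluster 12856897) encodes the lectin-like receptor for oxidized low density lipoprotein, which endothelial cells also carry. It gave 3.72, 4.11, 4.62 and 3.82 in HS and 5.97, 4.91, 6.04 and 4.44 in PF. Only PF replicate 4 fell within the HS range, below HS replicate 3. The means were 4.07 ± 0.40 in HS and 5.34 ± 0.79 in PF (SD, n = 4 each), and the mean over 8 arrays was below 5, in the range of weak signals. The log2 fold change of -1.27 (standard error 0.38, 95% interval -2.15 to -0.39) was the largest of the 10 genes in size and met the study's thresholds (limma, adjusted p = 0.683; exact permutation test, p = 0.057). As for CD14, PF replicates 1 and 3 were nearly equal. This call was kept with each of the 8 arrays left out in turn, at -1.04 without PF replicate 3. It was lost without PF replicates 1 and 3 (-0.61) and with array weights (-0.67). The study listed OLR1 among its top regulated genes from these same arrays, so the call is not independent evidence.

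CD163 (cluster 12861019; UMD3.1 chromosome 5, 102245937 to 102278444, plus strand) encodes the scavenger receptor by which macrophages take up haptoglobin bound to hemoglobin. Its signal was 5.75, 4.72, 6.05 and 4.66 in HS, against 6.30, 5.17, 8.80 and 5.54 in PF. PF replicate 3 lay above the next PF array by 2.50, the largest such gap among the 10 genes, and the other 3 PF arrays spanned values close to those of HS. Its log2 fold change of -1.16 (standard error 0.76, 95% interval -2.89 to 0.58) did not pass the test (limma, adjusted p = 0.712). It was -0.37 without PF replicate 3.

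CSF1R (cluster 12884534) encodes the receptor for CSF1 and interleukin 34, on which most tissue macrophages depend for survival. Its signal was 6.20, 6.04, 7.21 and 6.0 in HS and 7.28, 5.88, 8.73 and 6.76 in PF. HS replicate 3 stood at the level of PF replicate 1, and PF replicate 2 was the lowest of the 8 arrays. HS minus PF was -0.80 (standard error 0.57, limma adjusted p = 0.724), and -0.28 without PF replicate 3. Without PF replicate 2, however, it was -1.23 and met the study's thresholds.

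TYROBP and FCER1G encode small membrane adaptors with an activating tyrosine motif, through which receptors that lack a signaling tail of their own recruit the kinase SYK. TYROBP (cluster 12755860; UMD3.1 chromosome 18, 46779848 to 46782546, minus strand) had 5.21, 4.93, 5.88 and 5.09 in HS and 6.50, 5.29, 7.59 and 5.57 in PF. As for CD14, HS replicate 3 alone exceeded PF replicates 2 and 4. Its log2 fold change was -0.96 (standard error 0.48, 95% interval -2.06 to 0.14, limma adjusted p = 0.683), at an unadjusted p of 0.078, and the thresholds were not met. Leaving out PF replicate 3 gave -0.51 and leaving out PF replicates 1 and 3 gave -0.15, whereas with PF replicate 2 left out it was -1.28 and met the thresholds. FCER1G (cluster 12842770), which also serves the high-affinity IgE receptor of mast cells, had 6.51, 6.52, 7.47 and 6.76 in HS and 7.48, 6.09, 8.24 and 6.95 in PF. Here PF replicate 2 was the lowest of all arrays and HS replicate 3 stood at about the level of PF replicate 1. The difference between the means was -0.38 (standard error 0.43, limma adjusted p = 0.810), and -0.029 without PF replicate 3.

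AIF1 (cluster 12804435; UMD3.1 chromosome 23, 27503183 to 27505457, minus strand) encodes a calcium-binding protein of the macrophage cytoskeleton, also called IBA1. It gave 5.09, 5.01, 6.27 and 5.41 in HS and 7.49, 4.95, 8.35 and 5.72 in PF. The distance of PF replicates 1 and 3 from the rest was clear, since both exceeded all HS arrays by more than 1 log2 unit, while PF replicate 2 was lowest. The log2 fold change was -1.18 (standard error 0.71, 95% interval -2.81 to 0.45, limma adjusted p = 0.700). Leaving out PF replicate 3 changed it to -0.60, and leaving out PF replicates 1 and 3 together to 0.11. Without PF replicate 2, in contrast, it was -1.74 and met the study's thresholds.

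CYBB (cluster 12907031) encodes the catalytic subunit of the phagocyte NADPH oxidase, which makes superoxide. Its signal was 5.31, 5.29, 6.39 and 6.56 in HS and 6.46, 4.88, 8.51 and 5.69 in PF. It was the only member for which HS replicate 4, and not HS replicate 3, was the highest HS array, and HS replicate 4 also exceeded PF replicate 1. This gave a log2 fold change of -0.50 (standard error 0.72, limma adjusted p = 0.854). Its sign turned without PF replicate 3 (0.21).

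ITGB2 (cluster 12683362; UMD3.1 chromosome 1, 145104446 to 145133581, minus strand) encodes the integrin β2 chain shared by the leukocyte adhesion receptors, in lymphocytes as well as in myeloid cells. It had 5.69, 5.61, 6.44 and 5.71 in HS and 5.96, 5.70, 7.22 and 5.90 in PF. Apart from HS replicate 3 and PF replicate 3, the other 6 arrays lay close together. HS minus PF was -0.34 (standard error 0.35, 95% interval -1.13 to 0.45, limma adjusted p = 0.790), the smallest in size of the 10 genes, and 0.0070 without PF replicate 3.

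CD68 (cluster 12761636) encodes a glycoprotein of lysosomes and late endosomes that is abundant in macrophages but not restricted to them. It gave 7.14, 6.68, 7.76 and 6.42 in HS and 7.52, 6.99, 9.93 and 6.76 in PF. PF replicate 3 exceeded every other array by more than 2 log2 units, and the other 3 PF arrays lay within the HS range. A log2 fold change of -0.80 resulted (standard error 0.67, limma adjusted p = 0.750), and -0.090 without PF replicate 3.

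**Figure D2:**
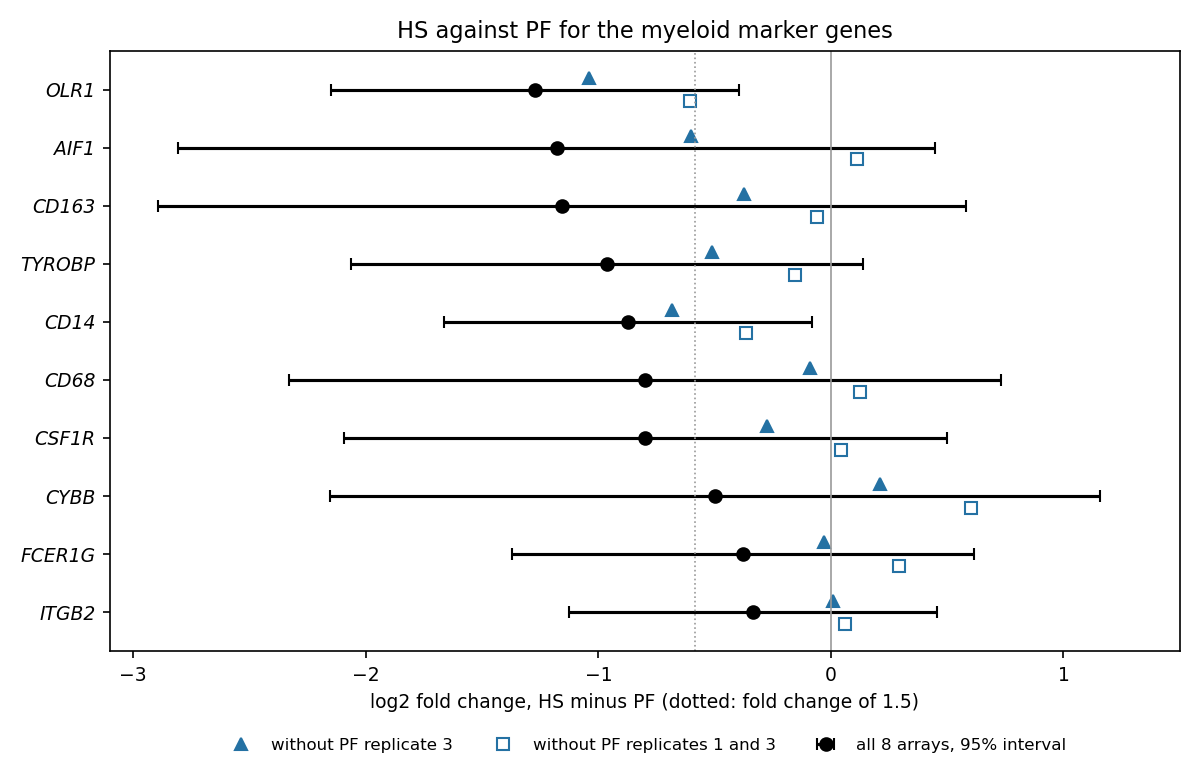
Log2 fold change, HS minus PF (x axis), of each myeloid marker gene (y axis). Black points with bars are the limma estimates on 8 arrays with 95% intervals, filled triangles the estimates without PF replicate 3, and open squares those without PF replicates 1 and 3. Only the intervals of OLR1 and CD14 lie below 0, and without PF replicates 1 and 3 the values scatter around 0, from -0.61 for OLR1 to 0.60 for CYBB.

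Largely the same arrays were high for the 10 genes, whereas the order of the lower HS arrays differed between genes. PF replicate 3 was the highest of the 8 arrays for all 10 genes, as it was for 26.1% of all clusters. Within PF, replicate 1 was second for all 10 and replicate 2 was lowest for 8. Within HS, replicate 3 was highest for 9 of 10, against 20.6% of all clusters. HS replicate 3 was above PF replicate 4 for all 10 genes and above PF replicate 2 for 9, the exception being OLR1. PF replicates 1 and 3 were both above all HS arrays for 7 genes, but not for CYBB, ITGB2 and CD68.

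The spread was larger in PF for all 10 genes, as it was for 75.5% of all clusters. Over the members the median SD was 0.55 in HS and 1.12 in PF, and the median ratio of the SD in PF to that in HS was 2.19. The ratio ranged from 1.10 for CD14 to 2.73 for AIF1. CD163, AIF1 and CYBB had the widest PF ranges, with 3.63, 3.41 and 3.63 between the lowest and the highest array, against 1.39, 1.25 and 1.26 in HS.

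Over the 8 arrays the pairwise correlation between members had a median of 0.88 across 45 pairs and was lowest for OLR1 with CYBB (0.61) and highest for CD163 with CD68 (0.98). These values describe arrays that share a normalization, and PF replicate 3 carried a part of them. Without it the median over 7 arrays was 0.75, and without PF replicates 1 and 3 it was 0.73 over 6 arrays, where OLR1 with CYBB was at -0.25 and FCER1G with AIF1 at 0.96. When the group means were subtracted, the median was 0.89, so that the correlation did not rest on the difference between the group means. This value pools the deviations of both groups, with PF replicate 3 among them, and does not describe each group alone.

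**Figure D3:**
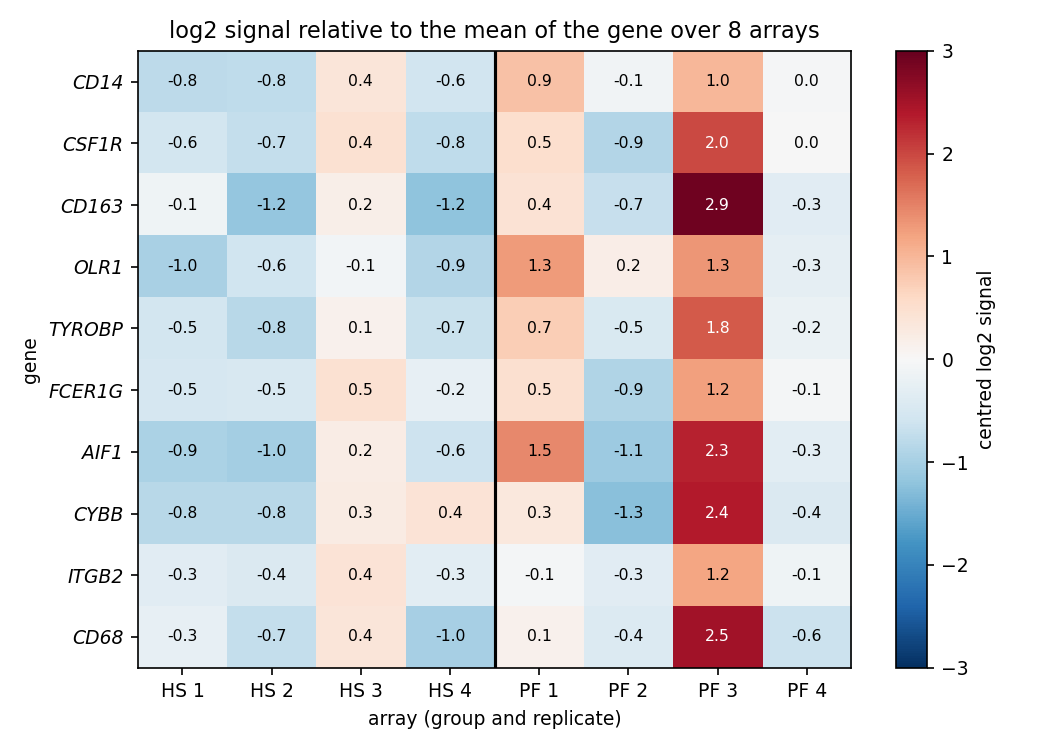
Log2 signal of each myeloid marker gene (rows) in each array (columns), relative to the mean of the gene over 8 arrays, with the value printed in each field. HS arrays stand left and PF arrays right of the line; PF replicate 3 is above the mean for all 10 genes and PF replicate 2 below it for all but OLR1.

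In addition, 86 further genes of myeloid function were examined in 10 lists, of which 81 are on the array. Their mean signal was lower in HS for 71 and higher for 10, with a median log2 fold change of -0.32, against 54.0% lower and a median of -0.019 over all clusters. None of the 81 met the study's thresholds in limma or in the methods' t-test, a single gene had a limma p below 0.05 before adjustment, and 24 were lower by more than 1.5-fold (3.31% of all clusters). PF replicate 3 was the highest array for 51 of the 81 (26.1% of all clusters). All HS arrays were below all PF arrays for 2 of the 81, a share close to the 2.00% of all clusters. The genes were IRF8 and CXCR2, which are named after their values were seen. For CXCR2 the highest HS array was at 4.88 and the lowest PF array at 4.90. IRF8, a transcription factor of monocytes and dendritic cells, had 5.03, 5.12, 5.29 and 5.25 in HS and 5.72, 5.42, 7.33 and 5.62 in PF, so that a narrow gap separated the groups. Without PF replicate 3, 71 of the 81 were lower with a median of -0.15, and without PF replicates 1 and 3, 49 were lower with a median of -0.038. None met the thresholds in either case.

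In a list around TYROBP and FCER1G, mostly of receptors and kinases of tyrosine-motif signaling, 13 of 14 genes were lower in HS, with a median of -0.44. SIRPA, an inhibitory receptor of macrophages, had a log2 fold change of -0.66 (standard error 0.52), and LAPTM5, a lysosomal protein of blood cells, had -0.93 (0.68). The partners of CYBB in the NADPH oxidase were lower for 5 of 5, with CYBA, which forms the membrane heterodimer with CYBB, at -0.26 (0.22) and the GTPase RAC2 at -0.64 (0.41). For CYBA, unlike CYBB, PF replicate 2 and not PF replicate 3 was the highest array (8.0 and 7.49). Of the partners and ligands of ITGB2, 5 of 6 were lower, with FERMT3, which activates leukocyte integrins, at -0.44 (0.22) and the ligand ICAM1 at -0.63 (0.54).

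The LPS receptor complex around CD14 was lower for 5 of 6 genes. LY96, which binds LPS together with TLR4, ranged from 4.82 to 8.18 in HS and from 4.58 to 9.48 in PF (log2 fold change -1.07, standard error 1.09), with PF replicate 1 highest. MYD88, an adaptor present in most cells, was at 0.10 (0.12). Scavenger and lectin receptors were lower for 7 of 8, with STAB1 at -0.38 (0.30) but the fatty acid receptor CD36 at 0.23 (0.56). Of the ligands and receptors of the colony stimulating factors, 6 of 7 were lower with a median of only -0.10. CSF1, the ligand of CSF1R, was at -0.32 (0.35) and CSF2RA at 0.10 (0.17).

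Myeloid transcription factors were lower for 7 of 8. IKZF1, a factor of blood cell lineages, was at -0.50 (standard error 0.21) and was the gene with a limma p below 0.05 before adjustment. SPI1, which encodes PU.1, the factor that directs macrophage development, was at -0.61 (0.49). Complement C1q and lysosomal genes of macrophages had the lowest median of the 10 lists (-0.80), and 9 of 10 were lower. The subunits C1QA, C1QB and C1QC were at -0.93, -0.76 and -0.85 (named after their values were seen), whereas the lysosomal proteases CTSB and CTSD, which most cells contain, were at -0.068 and -0.19. Neutrophil markers were lower for 8 of 8, with 6 of them below a mean signal of 5. LTF, which encodes lactoferrin, had 5.37, 5.60, 5.42 and 5.76 in HS and 6.03, 6.48, 9.21 and 5.73 in PF, so that PF replicate 3 alone was far from the others, and MPO was at -0.070 (0.11).

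The difference between the list means, HS minus PF, was negative for all 10 lists and smaller in size without PF replicate 3 for each. It was -0.47 on all arrays and -0.20 without PF replicate 3 for tyrosine-motif signaling, -0.56 and -0.095 for scavenger and lectin receptors, and -0.66 and -0.22 for C1q and lysosomal genes. For the NADPH oxidase partners these values were -0.39 and -0.20, for the LPS receptor complex -0.36 and -0.21, and for the partners of ITGB2 -0.41 and -0.22. Myeloid transcription factors gave -0.40 and -0.24, neutrophil markers -0.37 and -0.22, dendritic cell markers -0.14 and -0.062, and colony stimulating factors with their receptors -0.13 and -0.10. All 10 lists thus stayed below 0 on 7 arrays, where the members stood at -0.34. Without PF replicates 1 and 3, however, 4 lists were above 0, namely tyrosine-motif signaling (0.0019), the LPS receptor complex (0.13), scavenger and lectin receptors (0.058) and C1q and lysosomal genes (0.12). The other 6 lay between -0.20 for neutrophil markers and -0.0019 for dendritic cell markers.

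Pan-leukocyte and lymphocyte markers moved with the myeloid marker genes, with list means correlated at 0.98 and 0.93 with that of the members. This correlation was 0.64 for endothelial, -0.12 for granulosa and -0.89 for mast cell markers, and -0.86 for genes induced by the LH surge. These correlations include PF replicate 3 and were not computed without it. Relative to their mean over 8 arrays, mast cell markers stood at -0.40 in that array and between -0.031 and 0.10 in the others. Of the 6 mast cell markers, 4 had a mean signal below 5. The part of other cell types in the results was not tested. The summed linear signal of the 10 genes was 590 to 1234 in HS and 683 to 3703 in PF. Pan-leukocyte markers, such as PTPRC, were lower in HS for 8 of 8, with summed signals of 332 to 820 in HS and 376 to 1712 in PF. CORO1A met the study's thresholds (-0.81, limma adjusted p = 0.683), as did 0.627% of all clusters in that direction. Lymphocyte markers were lower for 23 of 24, with sums of 567 to 787 in HS and 650 to 1326 in PF, and CD3D met the thresholds (-1.09). Of the lymphocyte markers, 16 had a mean signal below 5. Without PF replicate 3 the difference in the list mean was -0.42 for pan-leukocyte and -0.19 for lymphocyte markers, against -0.78 and -0.32 on all arrays. Without PF replicates 1 and 3 it was -0.089 and -0.15. CORO1A (-0.66) and CD3D (-0.83) still met the thresholds without PF replicate 3, as did 0.698% of all clusters in that direction. They did not without PF replicates 1 and 3 (-0.46 and -0.55), where 0.571% of all clusters did.

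Markers of cells of the follicle wall differed from the myeloid marker genes mainly in the place of PF replicate 3. Among the other arrays, PF replicate 1, HS replicate 3 and PF replicate 4 were highest, in this order, for the myeloid marker genes. The same order held for endothelial and for fibroblast and smooth muscle markers. Endothelial markers were lower in HS for 12 of 12, with sums of 576 to 3266 in HS and 629 to 5283 in PF, and CDH5 at -1.03 (0.98) and ENG at -0.65 (0.75). Fibroblast and smooth muscle markers were lower for 13 of 13, with sums of 2089 to 9075 in HS and 3292 to 15435 in PF. TAGLN met the thresholds (-0.85), as did 0.627% of all clusters in that direction. Relative to their own means over 8 arrays, endothelial markers stood at 0.97 in HS replicate 3, 1.61 in PF replicate 1 and 0.47 in PF replicate 3. The myeloid marker genes stood at 0.27, 0.62 and 1.87 in the same arrays. PF replicate 1 was thus highest for endothelial genes and PF replicate 3 for myeloid genes, while HS replicate 3 was the highest HS array for both. The difference in the mean of the endothelial markers was -0.78 on all arrays, -0.76 without PF replicate 3, -0.37 without PF replicate 1 and -0.13 without both. For fibroblast and smooth muscle markers it was -0.90, -0.87, -0.54 and -0.32 in the same order, so that PF replicate 1 moved both lists more than PF replicate 3 did. TAGLN met the thresholds without PF replicate 3 (-1.09, 0.698% of all clusters) but not without PF replicate 1 (-0.58, 0.426% of all clusters).

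Genes induced by the LH surge ran the opposite way in PF replicate 3. Their mean there was -1.92 relative to the mean over 8 arrays, and the other 7 arrays lay between -0.022 and 1.04. Of the 13 such genes on the array, 6 were lower in HS. RUNX1 met the thresholds (-0.74, 0.627% of all clusters) on all arrays but not without PF replicate 3 (-0.81). The difference in the list mean was 0.37 on all arrays and -0.21 without PF replicate 3. Granulosa markers were lower in HS for 3 of 13, with INHA at 0.98 (0.66) and SERPINE2 at 0.38 (0.11). Theca endocrine markers were lower for 5 of 7. PTCH1 was higher and met the thresholds (0.95), as did 1.58% of all clusters in that direction. PTCH1 also met them without PF replicate 3 (0.78), as did 721 of 26773 clusters as higher in HS. Without PF replicate 3 the difference in the list mean was 0.60 for granulosa and -0.40 for theca endocrine markers, against 0.45 and -0.037 on all arrays.

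**Figure D4:**
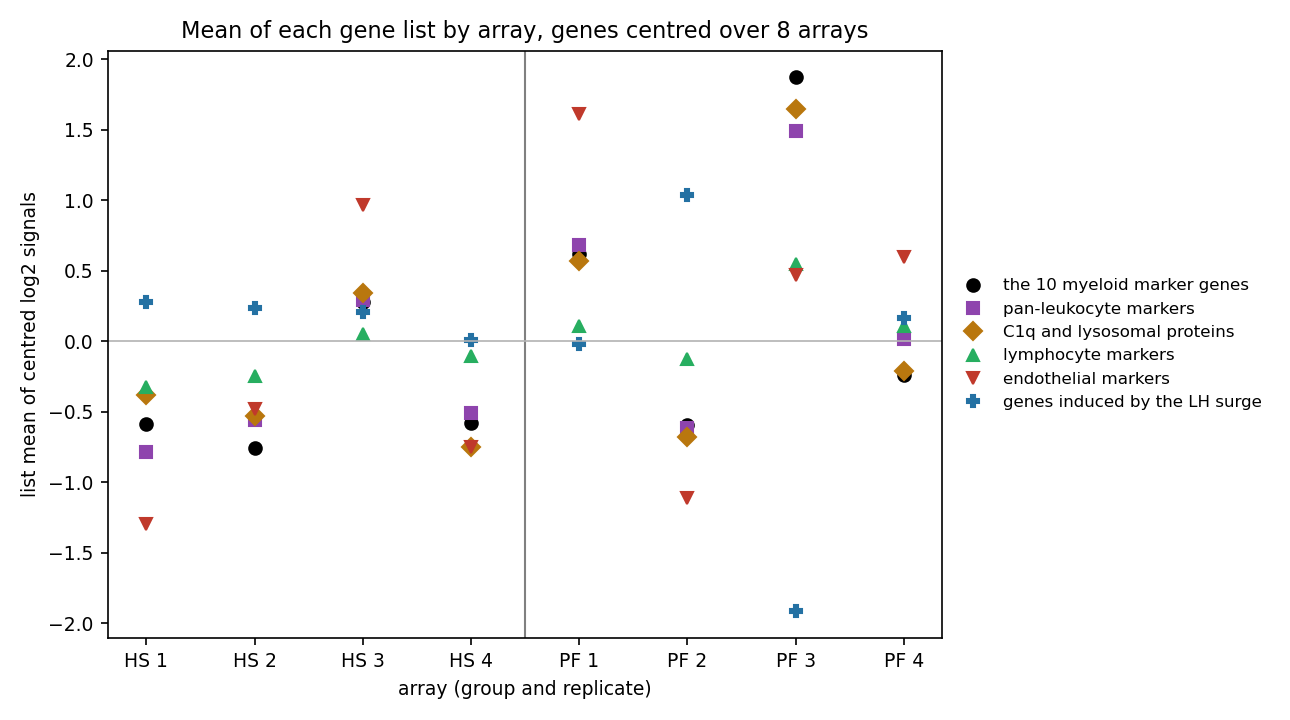
Mean of the centred log2 signals of 6 gene lists (y axis) in each array (x axis), HS left and PF right of the line. The myeloid marker genes, the C1q and lysosomal genes and the pan-leukocyte markers are highest in PF replicate 3, endothelial markers in PF replicate 1, and genes induced by the LH surge are lowest in PF replicate 3.

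The genes whose pattern was most like the mean of the 10 members were sought among 12413 other symbols with a mean signal of at least 5. The 8 highest Pearson correlations over the 8 arrays belonged to HCLS1 (0.994), CCR1 (0.993), MPEG1 (0.988), TGFBI (0.987), LGMN (0.985), FOLR2 (0.985), LAPTM5 (0.985) and NCF4 (0.984). Without PF replicate 3 the correlations of these 8 lay between 0.95 and 0.98 over 7 arrays. The genes had been picked on arrays that include these 7, so this is not a separate check. MPEG1, for example, had 4.88, 4.95, 5.96 and 5.31 in HS and 6.38, 5.12, 8.38 and 5.45 in PF. None of the 8 met the study's thresholds, with log2 fold changes from -1.09 for FOLR2 to -0.45 for NCF4. A correlation above 0.9 was found for 318 symbols (2.56%).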

How the data were processed

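RNA of mural granulosa cells from 8 cows was hybridized to Bovine Gene 1.0 ST arrays. For the deposited values the authors ran RMA with default settings in the Expression Console, which gives log2 signals per transcript cluster, normalized across arrays. The series table holds the same values to within 1.8e-15. All 26773 clusters entered the fit without a filter, since controls are not named. The number of arrays limits the precision. The genome build of the annotation is UMD3.1 where the table gives positions.

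The comparison of HS with PF used limma (version 3.58.1, lmFit and eBayes; R version 4.3.3) and the Benjamini-Hochberg adjustment over all clusters. Fold changes are differences of mean log2 values. The members were also tested over the 70 possible assignments of arrays to groups (exact permutation, two-sided). Each symbol was represented by its cluster with the highest mean. Of 205 entries in 21 gene lists, 198 are on the array. All 10 members were named, and of the other lists up to 4 genes past the thresholds by smallest p or else the 2 with the highest mean. The members, lists and alternatives were chosen with earlier results of these data known. The alternatives were the methods' t-test, a trend in eBayes, weights per array, only clusters with a mean log2 of 5 or more, array medians subtracted, a repeated quantile normalization, the series table, the mean of all clusters of a symbol, a block for the replicate number, leaving out each array, and PF replicates 1 and 3 left out together. For the genes of the other lists, leaving out PF replicate 1, PF replicate 3 or both was added after seeing the data. The procedure was tested on simulated data.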

Additional observations from a re-analysis of the deposited data

Results flagged for a closer look

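HS replicate 3 was far from the other HS arrays for CSF1R, for ITGB2 and for the mean of the 10 genes. CSF1R was at 7.21 there, with the other 3 HS arrays at 6.0 to 6.20. ITGB2 was at 6.44, with the others at 5.61 to 5.71. The mean of the 10 genes was at 6.63, with the others at 5.60 to 5.77. The gap to the nearest HS array was 0.835, 0.872 and 0.833 of the HS range in these cases, against a critical value of 0.829 for 4 samples. Chance alone marks about 1 in 20 groups, 22 groups were examined, and the mean contains CSF1R and ITGB2. Endothelial markers were also highest of the HS arrays in HS replicate 3, and their part was not tested. No PF array was marked in this way, although PF replicate 3 was the highest of all arrays for each of the 10 genes. For ITGB2 it came close to the critical value, lying 1.26 above the next PF array in a PF range of 1.52.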

How the results depend on the processing

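The number of myeloid marker genes past the study's thresholds depended on the setting. It was 2 on all arrays (0.627% of all clusters), 1 by the methods' t-test (0.325%), 1 at a mean log2 of at least 5 (0.746%), where OLR1 was not tested, and 0 with array weights (0.639%). Over the repeats that left out an array it lay between 1 and 5, with 5 without PF replicate 2, where 2.87% of all clusters were called as lower, and 1 without PF replicate 1 or 3 or without HS replicate 1, 2 or 4 (0.325% to 0.698%). Without PF replicates 1 and 3, the highest arrays for the members, it was 0 (0.571%). This setting raises HS minus PF by its choice of arrays. In it the number of genes lower in HS was 4, the median log2 fold change was 0.052 and the difference in the mean signal was 0.0055. With this exception, each of the 18 alternatives kept the median negative and left at least 8 genes lower in HS. Over the repeats without an array the median ranged from -1.15 (without PF replicate 2) to -0.32 (without PF replicate 3), and it was -0.42 with array weights. No member passed the adjustment in limma or the t-test under any of them. The number of genes without overlap was 0 on all arrays and 0 to 3 over the repeats without an array, with 3 without HS replicate 3 (4.32% of all clusters) and 1 without PF replicate 4 (3.48%), against 2.00% of all clusters on all arrays. The log2 fold change turned positive without PF replicates 1 and 3 for CSF1R (0.044), FCER1G (0.29), AIF1 (0.11), CYBB (0.60), ITGB2 (0.061) and CD68 (0.13). Over the repeats without an array, CYBB ranged from -1.0 (without PF replicate 2) to 0.21 (without PF replicate 3) and ITGB2 from -0.53 (HS replicate 3 left out) to 0.0070 (PF replicate 3 left out), and CYBB was at 0.056 with array weights. The cause was not tested.

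With the replicate number as a block, 5 genes met the thresholds (0.870% of all clusters), namely OLR1, CD14, CD163, CSF1R and TYROBP. The numbers were not taken as pairs, since cows of the same number are not said to be matched. Over all clusters the correlation of deviations between arrays of the same number lay between -0.27 and 0.21. Of the HS arrays only replicate 2 correlated best with the PF array of its own number.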

Other observations

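Markers of platelets, erythrocytes, mast cells and dendritic cells were also measured. Platelet markers were lower in HS for 3 of 5 genes with a median log2 fold change of -0.030, and all 5 had a mean signal below 5. ITGA2B was at 0.0051 (standard error 0.16) and GP9 at -0.051 (0.10). Erythrocyte markers were lower for 5 of 6, with the hemoglobin gene HBA at -0.30 (0.15), ALAS2 at -0.14 (0.12), and a mean signal below 5 for 5 of the 6. Mast cell markers were lower for 1 of 6, with KIT at 0.99 (0.63) and HDC at 0.28 (0.21), and their mean was lowest in PF replicate 3. Dendritic cell markers were lower for 6 of 9, with a median of -0.064. Among them CD86, a costimulatory receptor, had 5.58, 4.78, 6.24 and 4.81 in HS and 7.11, 5.03, 8.16 and 5.38 in PF, and CD83 was at 0.36 (0.61). None of the genes in these 4 lists met the study's thresholds, on all arrays or without PF replicate 3, where the difference in the list mean was -0.037 for platelet, -0.11 for erythrocyte and 0.056 for mast cell markers, against -0.040, -0.14 and 0.16 on all arrays.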
